A study of Mus musculus with 4 samples.

Results

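Expression of 9 genes that mark T cells, B cells and the PD-1 and CTLA-4 checkpoints was read in 4 primary mammary tumors of female mice. The genes were chosen by name: Cd3e, Cd3g, Cd4, Cd8a, Ms4a1, Cd79a, Pdcd1, Ctla4 and Cd274. Each has 1 row among the 23746 gene rows of every tumor's table. Tumors 26043 and 26044 came from WapCre;Rank;Brca1;p53 triple-mutant females and tumors 26048 and 26050 from WapCre;Brca1;p53 double-mutant females. All 4 tumors thus share the WapCre transgene and the floxed Brca1 and p53 alleles, and the genotypes differ in the floxed Rank allele. Cre is active in luminal and basal epithelial cells of the gland in this line, so the immune cells of the tumors were not the cells targeted for deletion. The females of the genotypes are described as littermates, but which tumors share a litter, the age of the females and the grade of each sequenced tumor are not given in the sources used here. The p-values measure only the spread between these 4 tumors.

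T cells detect antigen with a receptor whose signal is carried by the CD3 chains, and the coreceptors CD4 and CD8 mark helper and cytotoxic T cells. B cells carry an antigen receptor that signals through CD79 chains, and CD20, encoded by Ms4a1, lies on their surface. Activated T cells raise the inhibitory receptors PD-1 (Pdcd1) and CTLA-4, which dampen them when bound by PD-L1 (Cd274) on tumor or myeloid cells and by CD80 and CD86 on antigen-presenting cells. Interferon gamma, made by T and NK cells, is a known inducer of PD-L1 and of the chemokines CXCL9 and CXCL10, which attract T cells.

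Of the 9 genes, 7 have a promoter window in RefSeq for GRCm38.p6, the 300 bases from 250 before to 50 after the annotated start. The E-box CACCTG, a sequence bound by the E proteins that act in developing T and B cells, was searched on both strands. It lay in the windows of 5 of these genes, Cd3e, Cd3g, Cd79a, Ctla4 and Cd274, and in 20.2% of all 32851 windows of that length. The stretches of 30 bases are shown for Cd3g and Cd3e, neighbours on chromosome 9 with the same order of tumors, and for Cd79a and Cd274, whose order differed or whose level was higher. Capitals mark the E-box, which reads CAGGTG where it lies on the opposite strand. Positions count from the RefSeq start. For Cd3e that start lies upstream of the measured row, which ends at base 45009590, so the stretch lies outside that row.
Cd3g, 148 bases before the start, chr9:44980562-44980591, minus strand: ctcatcccctgcCACCTGctatcctgcaag
Cd3g, 35 bases before the start, chr9:44980449-44980478, minus strand: agagggcggagaCACCTGgtattgcctcta
Cd3e, at base 4 of the transcript, chr9:45009591-45009620, minus strand: gtggggttcagaCACCTGcctcccctgtct
Cd79a, 154 bases before the start, chr7:24897331-24897360, plus strand: ttgtggccagccCAGGTGcagggcagttcc
Cd274, 235 bases before the start, chr19:29367191-29367220, plus strand: agaccagagactCACCTGccactggctcct
The Ets core AGGAAG, which overlaps none of these E-boxes, lay in the windows of Cd3e, Cd79a, Pdcd1 and Ctla4 and in 35.4% of all windows. A match is a description of the letters in the window, and its use in these tumors was not measured.

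Transcripts of lymphocytes were scarce in every tumor. Expression is given in FPKM, fragments scaled to transcript length and to library size, as estimated by Cufflinks, together with the lower and upper bound of the Cufflinks interval in the same unit. Of the 36 values, 30 were under 1 FPKM and 4 were listed at 0, and 7 of the 9 genes were under 1 FPKM in all 4 tumors. All 36 values had the status OK and lay inside their intervals. The interval reached 0 for 10 values, and for the other values its half-width ran from 14.7% to 77.8% of its midpoint. The number of mapped fragments is not given. If an interval is read as a count plus or minus 2 of its square roots, the Cd8a values rest on about 34, 10, 47 and 7 fragments and the Cd3e value of tumor 26050 on about 8. The interval of a value listed at 0 is itself 0, so it sets no upper limit. The pan-leukocyte gene Ptprc (CD45) was at 3.67, 1.61, 3.97 and 4.02 FPKM in tumors 26043, 26044, 26048 and 26050. Rank (Tnfrsf11a), the deleted gene, was at 2.07 and 0.962 FPKM in triple-mutant and at 10.6 and 11.9 FPKM in double-mutant tumors, so the labels match the level of the targeted gene.

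Within each genotype 1 tumor had higher FPKM values of Cd3e, Cd3g and Cd8a than the other, while the genotype means lay close together. Cd3e (chromosome 9 from 44998743 to 45009590 on mm10) encodes the epsilon chain of CD3. It was at 0.478 FPKM in tumor 26043, 0.0979 in tumor 26044, 0.444 in tumor 26048 and 0.156 in tumor 26050. Its Cufflinks intervals were 0.217 to 0.677, 0 to 0.186, 0.209 to 0.653 and 0.0501 to 0.275 in the same order. Tumors 26043 and 26048 were thus high and tumors 26044 and 26050 low, and the genotypes overlapped. The intervals of the triple-mutant tumors did not overlap, but those of the double-mutant tumors did. Triple-mutant tumors averaged 0.288 ± 0.269 FPKM (SD, n = 2), against 0.300 ± 0.204 FPKM (SD, n = 2) for the double-mutant tumors.

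Cd3g (chromosome 9 from 44969572 to 44980431) encodes the gamma chain and lies 18.3 kb from Cd3e on the same strand. It was at 0.904, 0.0745, 0.729 and 0.145 FPKM in tumors 26043, 26044, 26048 and 26050, a 12.1-fold range. Its order of tumors was that of Cd3e. The interval of tumor 26043, 0.494 to 1.33 FPKM, lay wholly above that of tumor 26044, 0 to 0.187, and the interval of tumor 26048, 0.403 to 1.03, wholly above that of tumor 26050, 0.0351 to 0.281. The difference between genotype means was 0.024 on the log2(FPKM + 1) scale, against 0.825 between the triple-mutant tumors and 0.594 between the double-mutant tumors.

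Cd8a (chromosome 6 from 71373427 to 71379171), the alpha chain of CD8, was at 0.343, 0.110, 0.508 and 0.0795 FPKM. The same pair of tumors was high, with tumor 26048 above tumor 26043, and the high and the low tumor of each genotype had intervals that did not overlap. Its partner chain Cd8b1 was at 0.531, 0.127, 0.664 and 0.181 FPKM. The other CD3 chains gave values of 0.328, 0.193, 0.520 and 0.0666 FPKM for Cd3d and of 0.138, 0.0709, 0.311 and 0.0216 FPKM for Cd247, the zeta chain. In each of these genes tumor 26043 was above tumor 26044 and tumor 26048 above tumor 26050. For Cd3d, however, the intervals of the triple-mutant tumors overlapped. For Cd247 the intervals overlapped within both genotypes and reached 0 in tumors 26043, 26044 and 26050.

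**Figure D1:**
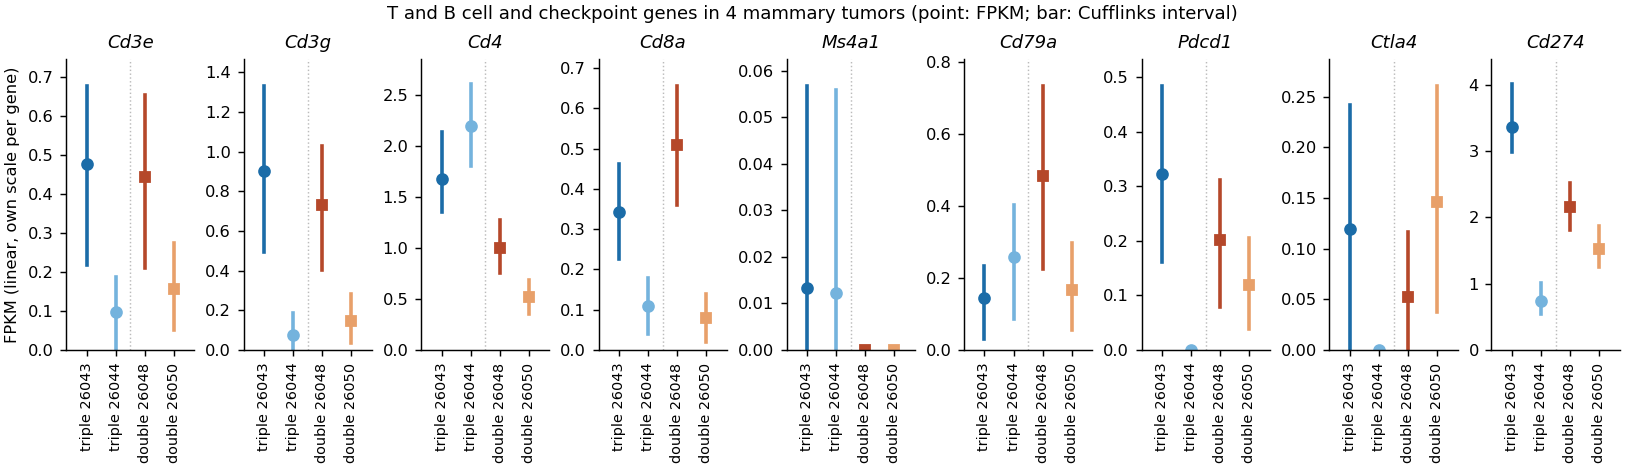
FPKM of the 9 genes in each tumor, on a linear axis of its own for every gene, with the Cufflinks interval as a bar; circles are triple-mutant and squares double-mutant tumors. Cd3e, Cd3g and Cd8a are high in tumors 26043 and 26048 and low in tumors 26044 and 26050, though the Cd3e bars of tumors 26048 and 26050 overlap. Only Cd4 and Ms4a1 have both triple-mutant tumors above both double-mutant tumors.

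Cd4 (chromosome 6 from 124864693 to 124888209) did not follow the CD3 genes. It was at 1.68 and 2.20 FPKM in triple-mutant tumors 26043 and 26044 and at 1.003 and 0.515 FPKM in double-mutant tumors 26048 and 26050. The genotypes did not overlap, and the highest value stood in tumor 26044, where Cd3e and Cd3g were lowest. The intervals of tumors 26043 and 26044, 1.36 to 2.13 and 1.80 to 2.61 FPKM, lay above those of tumors 26048 and 26050, 0.751 to 1.27 and 0.348 to 0.685. Cd4 was above Cd3e 3.51-fold, 22.5-fold, 2.26-fold and 3.31-fold in the 4 tumors. CD4 is also carried by some dendritic cells of the mouse, and 8 dendritic cell genes were read. Flt3, Xcr1, Clec9a, Siglech and Cd209a were under 1 FPKM in every tumor. Itgax was at 1.51 to 6.33 FPKM and Batf3 at 3.71 to 7.84 FPKM, both lowest in tumor 26044. Zbtb46 was at 5.99 FPKM in tumor 26044 and at 0.261 to 1.001 FPKM in the others. Tumor 26044 also had the highest sum of the 3 endothelial markers read, 63.2 FPKM. Which cells gave the Zbtb46 values was not determined, and the part of dendritic cells in the Cd4 values was not tested.

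The log2 fold change of Cd4, triple-mutant minus double-mutant on the log2(FPKM + 1) scale, was 0.75 (SE 0.33, limma adjusted p = 0.537 by Benjamini-Hochberg over 12752 genes), so Cd4 did not pass the threshold of 0.05. With a pseudocount of 0.1 in place of 1 the fold change was 1.29, since the scale understates changes of low genes. In limma 0 of the 12752 genes tested passed (0%), and 1252 (9.82%) had an unadjusted p under 0.05. With 2 tumors against 2 the smallest p of an exact two-sided permutation test is 0.333, which Cd4 reached.

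Of the 9 genes, 2 were higher in both triple-mutant than in both double-mutant tumors, Cd4 and Ms4a1, and 0 were lower. Over the 19078 genes above 0 FPKM in any tumor these shares were 20.5% higher and 20.2% lower, and over the 12752 genes tested by limma 21.3% and 22.9%, so 2 of 9 is close to the background. The difference between genotype means was smaller than both differences within a genotype in 7 of the 9 genes, against 30.7% of the 19078 genes. In 7 of the 9, tumor 26043 was above tumor 26044, against 56.5% of the 19078 genes, and in 7 of the 9 tumor 26048 was above tumor 26050, against 52.4%. Cufflinks intervals of the triple-mutant pair did not overlap in 4 genes (Cd3e, Cd3g, Cd8a and Cd274) and those of the double-mutant pair in 3 (Cd3g, Cd4 and Cd8a). Between genotypes the number was 2 for tumors 26043 and 26048 and 4 for tumors 26043 and 26050. It was 5 for tumors 26044 and 26048 and 2 for tumors 26044 and 26050, so intervals also separated between genotypes. A pair with a value listed at 0 was not counted as separate, which affects Pdcd1, Ctla4 and Ms4a1. The share of separate pairs over all genes was not computed, so these numbers are no result about the members.

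**Figure D2:**
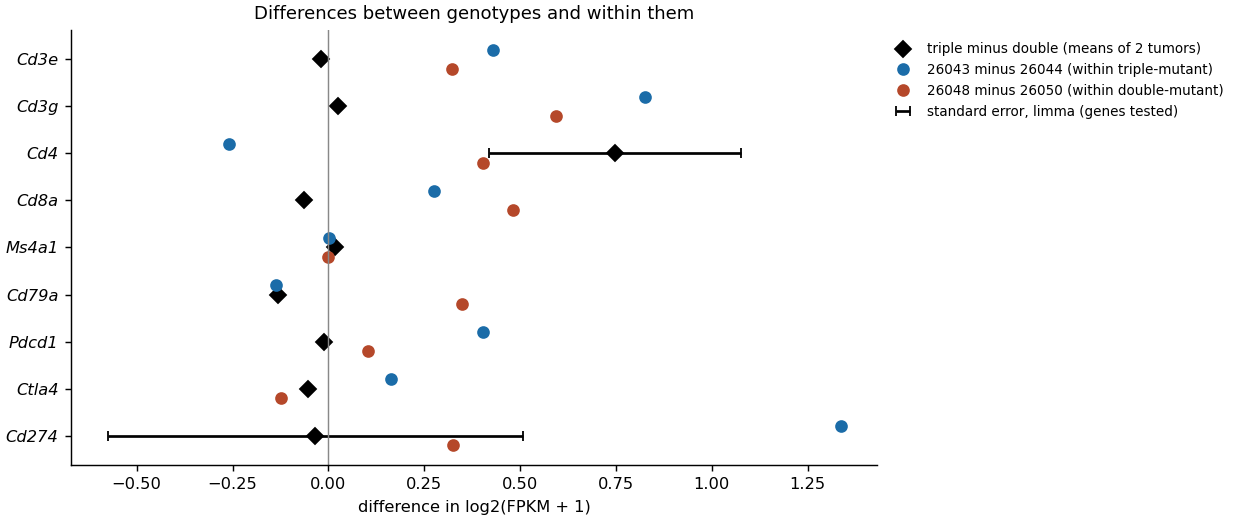
Differences in log2(FPKM + 1) for the 9 genes: between genotype means (diamonds, with the standard error of limma for the 2 genes tested), between the triple-mutant tumors (blue) and between the double-mutant tumors (red). The diamonds of Cd3e, Cd3g, Cd8a, Pdcd1 and Cd274 lie between -0.064 and 0.024, while the differences within a genotype reach 1.34 for Cd274.

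Both B cell members, Ms4a1 and Cd79a, were under 1 FPKM in every tumor. Ms4a1 (chromosome 19 from 11250603 to 11266151) was at 0.0132 and 0.0123 FPKM in triple-mutant tumors and listed at 0 in both double-mutant tumors. The intervals of both triple-mutant values reached 0, so its place above the double-mutant tumors rests on values that cannot be told from none. Cd79a (chromosome 7 from 24897511 to 24902197), the alpha chain that signals for the B cell receptor, was at 0.145, 0.259, 0.484 and 0.166 FPKM in tumors 26043, 26044, 26048 and 26050. Tumor 26048 was highest, the genotypes overlapped, and the interval of tumor 26048, 0.226 to 0.735, overlapped those of the other tumors. Its partner Cd79b was at 0.835 and 1.22 FPKM in triple-mutant and at 0.483 and 0.553 FPKM in double-mutant tumors, so the values of the genotypes separated but the Cufflinks intervals overlapped.

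The B cell lineage factor gene Pax5 was listed at 0 in all 4 tumors. In the list of 11 B cell receptor and surface genes 8 were under 1 FPKM in every tumor, and 2 were tested, Cd72 and Cd81. Cd72 was at 15.8, 5.39, 15.1 and 13.5 FPKM in tumors 26043, 26044, 26048 and 26050, and its genotypes overlapped. Cd81, a tetraspanin gene that many cell types express, was at 225 and 201 FPKM in triple-mutant and at 292 and 378 FPKM in double-mutant tumors (log2 fold change -0.64, SE 0.29, limma adjusted p = 0.543). The tables hold no rows for the constant genes of the antigen receptors, which were not analysed here.

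The checkpoint receptors were measured near the detection limit. Pdcd1 (chromosome 1 from 94038305 to 94052553) was at 0.322 FPKM in tumor 26043, listed at 0 in tumor 26044, and at 0.201 and 0.118 FPKM in tumors 26048 and 26050. The genotypes overlapped, and tumors 26043 and 26048 were again the higher of their genotypes. Ctla4 (chromosome 1 from 60909025 to 60915830) was at 0.119 FPKM in tumor 26043, listed at 0 in tumor 26044, at 0.0524 FPKM in tumor 26048 and at 0.146 FPKM in tumor 26050. Its interval excluded 0 in tumor 26050, from 0.0372 to 0.261 FPKM, and reached 0 in the others. Both genes lie on chromosome 1, as Rank does, 11.7 and 44.9 Mb from it.

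Among the 11 inhibitory receptors listed, 7 were under 1 FPKM in every tumor and 3 were tested, Lag3, Havcr2 and Vsir, of which 0 passed the threshold in limma. None of those 3 separated the genotypes. Lag3, which encodes an inhibitory receptor for MHC class II, was at 4.51, 4.05, 4.69 and 2.15 FPKM. Cd28, the activating receptor that shares its ligands with CTLA-4, was at 0.108 and 0.0673 FPKM in triple-mutant and 0.0354 and 0.0456 FPKM in double-mutant tumors, and the intervals of the double-mutant values reached 0.

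Cd274 (chromosome 19 from 29367438 to 29388094), which encodes PD-L1, was the gene of widest range among the members measured above 1 FPKM. It was at 3.37 FPKM in tumor 26043, 0.731 in tumor 26044, 2.15 in tumor 26048 and 1.52 in tumor 26050. The intervals were 2.98 to 4.01, 0.547 to 1.01, 1.80 to 2.52 and 1.24 to 1.87 FPKM, so both double-mutant tumors lay between the triple-mutant tumors. Its log2 fold change was -0.03 (SE 0.54, limma adjusted p = 0.986). Leaving out tumor 26043 gave -0.70 and leaving out tumor 26044 gave 0.63, so the direction depends on which triple-mutant tumor is read, and without tumor 26048 it was 0.13.

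Pdcd1lg2, the gene of the second PD-1 ligand and a neighbour of Cd274, was at or under 0.0413 FPKM in every tumor. Among 10 genes around Cd274 on chromosome 19, Cd274 not counted, 9 were tested, 0 passed, and the median log2 fold change was -0.005, against -0.022 over all genes tested. Of the CTLA-4 ligands, Cd86 was at 2.103, 0.706, 1.93 and 1.33 FPKM and Cd80 at 0.505, 0.183, 0.684 and 0.145 FPKM. For Cd86 the order of the 4 tumors was that of Cd274. The tested genes whose centred profile lay nearest to that of Cd274 were Mgll, Mtss1l and Serpina3g, with root mean square distances of 0.036, 0.050 and 0.054 log2 units over the 4 tumors. With only 4 values per profile and 12752 genes searched, such closeness does not show joint regulation.

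Of the 13 checkpoint and costimulatory ligands, 11 were tested and 0 passed. In 3 both triple-mutant tumors were higher and in 1 both were lower, against 21.3% and 22.9% of all genes tested, and the median log2 fold change was 0.039. Icosl, the ligand of the costimulator ICOS, was at 2.98 and 26.9 FPKM in triple-mutant and 2.56 and 2.93 FPKM in double-mutant tumors (log2 fold change 1.49, SE 0.98, limma adjusted p = 0.646). Nectin2, a ligand of TIGIT, was at 39.7 and 36.1 against 24.6 and 18.7 FPKM. Cd276 (B7-H3) was at 21.6 and 9.18 against 40.7 and 24.7 FPKM.

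Of 11 genes listed around interferon gamma, 1 was higher and 2 lower in both triple-mutant tumors, against 21.3% and 22.9% of all genes tested. The chemokine genes Cxcl9 and Cxcl10 were high in the tumors in which the CD3 genes were high. Ifng itself was listed at 0 in both triple-mutant tumors and at 0.0631 and 0.0292 FPKM in the double-mutant tumors, with intervals that reached 0. Cxcl9 was at 4.44, 0.375, 5.42 and 0.806 FPKM and Cxcl10 at 58.1, 1.58, 54.7 and 12.9 FPKM in tumors 26043, 26044, 26048 and 26050. Irf1, a factor induced by interferons, was at 31.7, 18.4, 47.4 and 17.0 FPKM. All 11 genes of this list were tested, 0 passed and the median log2 fold change was -0.005. The members whose genotypes did not overlap were Socs1, an inhibitor of the JAK kinases, at 1.21 on the log2 scale (SE 0.32, limma adjusted p = 0.446), Ifngr2, a chain of the interferon gamma receptor, at -1.63, and Ciita, the activator of MHC class II genes, at -0.52.

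Most cytotoxic genes were higher in tumor 26043 than in tumor 26044 and in tumor 26048 than in tumor 26050. Nkg7, a granule gene of NK and cytotoxic T cells, was at 2.97 FPKM in tumor 26043, 0.0931 in tumor 26044, 2.16 in tumor 26048 and listed at 0 in tumor 26050. Granzyme B (Gzmb) was at 0.474 and 0.335 FPKM in tumors 26043 and 26048 and listed at 0 in the others. Of 14 NK and cytotoxic genes, tumor 26043 was above tumor 26044 in 13 and tumor 26048 above tumor 26050 in 12, against 56.5% and 52.4% of the 19078 genes. Of these 14 genes, however, 11 were under 1 FPKM in every tumor, 3 were tested and 0 passed. In tumor 26044 6 of them were listed at 0 and in tumor 26050 4, so the order rests mostly on very low values. Not all shared the high tumors: Eomes, a transcription factor gene of these cells, was highest in tumor 26050 at 0.230 FPKM, Ctsw was higher in tumor 26050 (1.39 FPKM) than in tumor 26043 (1.19 FPKM), and Ifng was listed at 0 in tumor 26043. In the list of 11 genes of the T cell receptor complex and its coreceptors tumor 26043 was above tumor 26044 in 10 and tumor 26048 above tumor 26050 in 9. Of those 11, 2 were tested, 0 passed, and 7 were under 1 FPKM in every tumor. Of 18 T cell signaling genes 6 were tested, and of 17 T cell state genes 4, with 0 passing in either list.

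**Figure D3:**
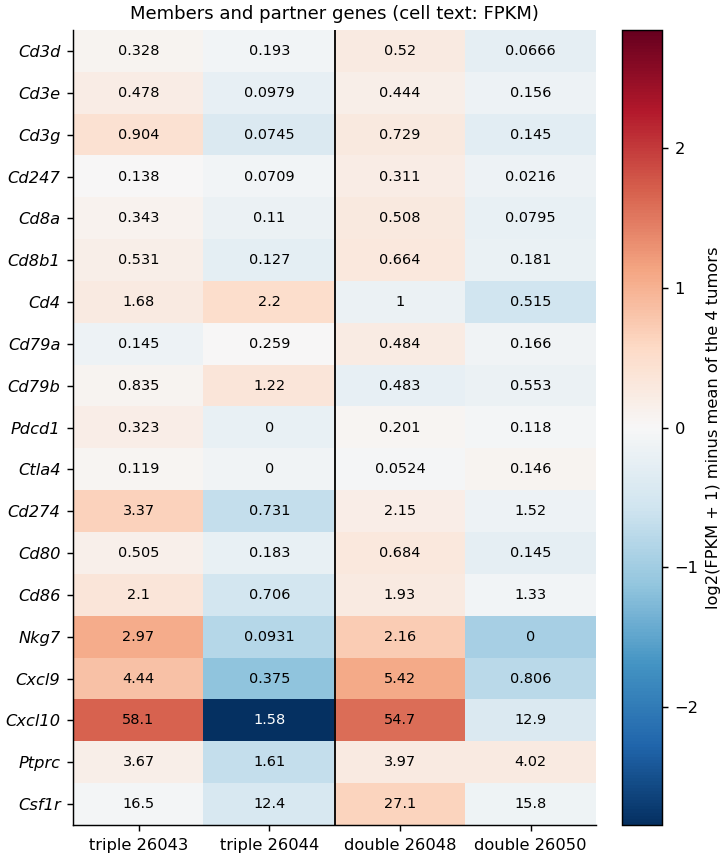
FPKM (numbers) of members and partner genes in each tumor, coloured by log2(FPKM + 1) minus the mean of the 4 tumors. Cxcl9, Cxcl10 and Nkg7 share the high tumors 26043 and 26048 with the CD3 and CD8 genes, while Ptprc is lowest in tumor 26044 and at 4.02 FPKM in tumor 26050.

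Leukocyte genes moved with part of this pattern. In bulk tumor RNA, fewer cells of a type and less RNA per cell cannot be told apart. The 10 pan-leukocyte genes summed to 161, 69.9, 175 and 190 FPKM in tumors 26043, 26044, 26048 and 26050, with 0 genes at 0, and 5 of the 10 were lower in both triple-mutant tumors, as were 22.9% of all genes tested. The 9 macrophage genes summed to 773, 419, 1186 and 827 FPKM, with Csf1r at 12.4 to 27.1 FPKM. Tumor 26044 was thus low in leukocyte genes as well as in CD3 genes, and tumor 26050 was low in CD3 genes with a Ptprc level like that of tumor 26048. Ptpn6 made up 46.1 FPKM of the sum in tumor 26050 and 12.9 FPKM in tumor 26048. Relative to Ptprc on the FPKM scale, Cd3e was at 13.0%, 6.07%, 11.2% and 3.87% and Cd3g at 24.7%, 4.62%, 18.4% and 3.61%, so tumors 26043 and 26048 stayed the higher of their genotypes for these chains. For Cd3d (8.95%, 12%, 13.1% and 1.65%) and Cd247 (3.76%, 4.40%, 7.83% and 0.537%) tumor 26044 was instead above tumor 26043. Cd274 was at 91.9%, 45.3%, 54.2% and 37.7% of Ptprc, with the triple-mutant tumors on either side of the higher double-mutant tumor. Cd4 was at 45.7%, 136%, 25.3% and 12.8% of Ptprc, thus above Ptprc itself in tumor 26044.

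Other cell types differed between the same tumors. The 6 epithelial markers summed to 371 FPKM in tumor 26044 and to 1826 to 2857 FPKM in the others, with Epcam at 25.7 against 347 to 516 FPKM. The basal keratin gene Krt5 was higher in both triple-mutant tumors by 6.68 on the log2 scale (SE 0.85, limma adjusted p = 0.179). The 3 endothelial markers summed to 63.2 FPKM in tumor 26044 and to 18.3 to 32.9 FPKM elsewhere. Adipocyte genes summed to 1350 FPKM in tumor 26048, with Adipoq at 56.0 FPKM there and at most 0.83 FPKM in the others. A lymph node lies in the mammary fat pad of mice, so 5 genes of lymph node stroma and high endothelial venules were read. Glycam1, which mammary epithelium also makes in lactation, was at 996 FPKM in tumor 26048 and at most 0.146 FPKM elsewhere, Ccl21a was at 4.77 FPKM in tumor 26043 and listed at 0 in both double-mutant tumors, and Ccl19 and Madcam1 were highest in tumor 26048 at 1.44 and 1.37 FPKM. Cxcl13 was highest in tumor 26050 at 1.07 FPKM. Of the B cell genes in tumor 26048, Ms4a1 and Pax5 were listed at 0, while Cd79a (0.484 FPKM), Cd22 (0.803 FPKM) and Blk (0.102 FPKM) were higher there than in the other tumors. Dendritic cell genes summed to 10.1 to 14.2 FPKM and neutrophil genes to 37.8, 9.96, 10.8 and 52.4 FPKM, and fibroblast genes to 125, 57.4, 509 and 219 FPKM. The part of these cell types in the CD3 and Cd274 values was not tested.

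**Figure D4:**
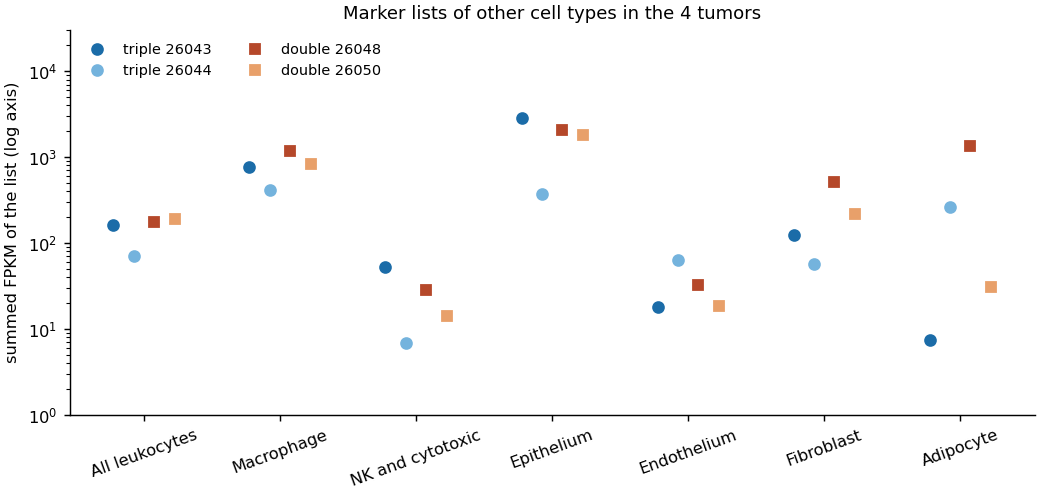
Summed FPKM of marker lists of other cell types per tumor, on a log axis, circles for triple-mutant and squares for double-mutant tumors. Tumor 26044 is lowest for leukocytes (69.9 FPKM), macrophages and epithelium (371 FPKM) and highest for endothelium, and tumor 26048 is highest for adipocyte genes (1350 FPKM).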

How the data were processed

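PolyA RNA of 4 tumors was sequenced by the authors from dUTP-containing libraries as single-end reads, aligned with TopHat2 2.0.10 and Bowtie 0.12.9 to mm10, and summarised by Cufflinks 2.1.1. The deposited tables, 1 per tumor, give FPKM per gene with interval bounds and a status. No read counts were used here, so no count test was run, and the depth is unknown. The strand setting of the quantification and the annotation are not given in the sources used here, and Cd3e, Ms4a1 and Cd274 overlap annotated antisense genes. Of the 21209 rows whose symbol GENCODE M21 lists, 98.0% overlap the GRCm38 position of that gene. Starts were raised by 1 to count from 1.

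The tables were joined on symbol and position. Genes reaching 1 FPKM in 2 or more tumors were kept (12752), which include Cd4 and Cd274 and leave out the other 7 members. The model of limma 3.58.1 (R 4.3.3, eBayes with trend, no covariates) was applied to log2(FPKM + 1), triple-mutant minus double-mutant, and p-values were adjusted by Benjamini-Hochberg, with calls at 0.05. Single values were tested by exact two-sided permutation (scipy 1.17.1). The fit was tested on simulated data. Tables were handled in Python 3.11.15 (numpy 2.4.6, pandas 2.3.3) and plotted with matplotlib 3.10.9.

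The members and the 20 gene lists (187 genes, 186 found, Mzb1 missing) were chosen with earlier results of these data known. Named genes are the members, their partner subunits and ligands, and, from the lists, some of the 2 genes of largest difference in each direction among genes tested without overlap. Others were named after their values were seen: Lag3, Eomes, Cd22, Cd72, Blk, Cxcl9, Cxcl10, Irf1, Nkg7, Gzmb, the markers of other cell types, and Cd5, Cd6 and Btla. As alternatives, the pseudocount was set to 0.1, the filter was dropped or raised to 5 FPKM, values were rescaled to TPM or quantile normalized, the variance trend was left out, rows were limited to status OK, the interval midpoint replaced the FPKM, and each tumor was left out. Some genes of the lists are not reported here.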

Additional observations from a re-analysis of the deposited data

How the results depend on the processing

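The number of genes with an adjusted p under 0.05 in limma was 0 as reported. It was 6 with quantile normalization, 5 without the variance trend and 1 with the interval midpoint, and none of these were members. It was 0 under the other alternatives, with 509 to 2217 genes at an unadjusted p under 0.05 when each tumor was left out. The number of members higher in triple-mutant tumors was 2 and that of members lower was 0 under every alternative that kept all 4 tumors. When each tumor was left out the numbers ran from 2 to 6 higher and from 1 to 5 lower. Most were higher (6) without tumor 26044 and most were lower (5) without tumor 26043, and a lone tumor is assumed to vary like the other group. A lone tumor also lies outside the other pair more easily than 2 tumors do. The share over all genes was not computed with a tumor left out, so these numbers are no result about the members. The log2 fold change of Cd274, -0.034 as reported, reversed without tumor 26044 (0.633) and without tumor 26048 (0.127). It kept its sign in the other alternatives, between -0.702 and -0.008. That of Cd4 stayed positive, from 0.547 to 1.295. The cause of these shifts was not tested. Neither Cd4 nor Cd274 reaches 5 FPKM in 2 tumors, so that filter gives no value for them. No paired analysis was possible because the tumors of the genotypes share no replicate number and which of them are littermates is not given. With 2 tumors per genotype and few fragments behind each value, a genotype difference in the CD3, CD79 and checkpoint receptor genes of the size of the spread within a genotype was not detectable.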

Other observations

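Several genes best known from lymphocytes were expressed at levels far from those of Cd3e and Ms4a1. Pou2af1, a coactivator gene of B cells, was at 6.15 and 24.4 FPKM in triple-mutant tumors 26043 and 26044 and at 0.112 and 0.0302 FPKM in double-mutant tumors 26048 and 26050, 3.65 higher on the log2 scale (SE 0.68, limma adjusted p = 0.292). Tcf7, a transcription factor gene of T cells and of Wnt-responsive epithelium, was at 32.3 and 92.2 FPKM in triple-mutant and at 14.0 and 5.94 FPKM in double-mutant tumors (log2 fold change 2.45, SE 0.67, limma adjusted p = 0.452). Fyn, a kinase gene of T cells and many other cells, was at 25.0 and 193 FPKM against 8.25 and 12.8 FPKM. Derl3, a gene of secretory cells such as plasma cells, was at 8.71 and 100 FPKM against 3.998 and 4.49 FPKM. In these 4 genes the genotypes did not overlap, and none passed the threshold.

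Blnk, an adaptor gene of B cell receptor signaling, was lower in both triple-mutant tumors, at 8.18 and 0.909 FPKM against 19.2 and 13.9 FPKM (log2 fold change -2.05, SE 0.82, limma adjusted p = 0.520). Lck, the kinase gene that starts T cell receptor signaling, was at 6.52, 5.67, 3.11 and 6.65 FPKM in tumors 26043, 26044, 26048 and 26050, 7.01-fold to 57.9-fold above Cd3e. Cd5 and Cd6, which encode receptors of T cells, were highest in double-mutant tumor 26050, at 3.66 and 1.77 FPKM, where Cd3e was at 0.156 FPKM, and they were at most 0.912 and 0.287 FPKM in the others. Btla, an inhibitory receptor gene, was at 4.95 FPKM in triple-mutant tumor 26043 and at most 0.880 FPKM in the others.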
